A study of Mus musculus with 50 samples.

Results

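The Id genes and the feedback genes of bone morphogenetic protein (BMP) signaling are described here in mammary gland (MG) tumors of mice that received insulin, insulin analogues or IGF1. The members are Id1, Id2, Id3, Id4, Smad6, Smad7, Smad9, Bmp4 and Bambi, which are 9 of the 37701 genes in the expression table. They were named by gene symbol. Id3 was chosen by its measured RPKM, which was lower in X10 tumors than in vehicle tumors, so the X10 against vehicle values below describe that choice and carry no test. Of the 9 members, 8 had a mean of at least 0.5 RPKM (reads of a gene relative to its length and to the size of the library) and were tested among 16733 genes. Smad9 fell below this level and is given by its values.

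RNA of 50 MG tumors was sequenced. Each of 5 groups of mice, given vehicle, insulin, glargine, X10 or IGF1, contributed 10 tumors. All mice were p53R270H/+WAPCre, so that a heterozygous p53 mutation was expressed where the WAP promoter drives Cre, in the mammary gland, and vehicle mice carried it too. Injections started when the mice were 8 weeks old, and tumors were taken at 1 cm3, 24 h after the last injection. X10 and glargine are insulins with a changed structure, whereas IGF1 is a growth factor related to insulin. Tumors are named by group and number as in the labels, which title the vehicle tumors untreated (Untreated_161). EMT-like tumors with a latency near the median of their group had been selected, so the groups do not represent all tumors of these mice. The paper reports a significantly shorter latency with X10 and IGF1. Age at sampling and length of treatment would thus differ along with the compound and cannot be told apart from it. The labels name tumors and not mice, and a mouse of this model can carry more than 1 tumor, so p-values measure the spread between tumors.

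BMP ligands such as Bmp4 bring type I and type II receptors together, and the receptors phosphorylate SMAD1, SMAD5 and SMAD9, which enter the nucleus with SMAD4. Id1, Id2, Id3 and Id4 are known targets of this signal and encode helix-loop-helix proteins without a DNA-binding region, which hold E proteins and related factors away from DNA. Smad6 and Smad7 encode inhibitory SMADs and Bambi a decoy receptor, and all of them dampen the pathway that induces them. In the mammary gland Id2 is needed for the growth of alveoli in pregnancy.

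The short sequences that BMP SMADs are known to bind were read from the RefSeq promoter table (GRCm38.p6), which held 6 of the 9 members. Within 250 bases before the start, GGCGCC, which reads the same on both strands, was found in the promoters of Id2, Id4 and Smad9, and in 9.59% of all 32851 promoters. GTCT, searched on both strands and therefore also as AGAC, was found in 82.9% of all promoters. It was in all of the 6 member promoters but that of Id4. These windows of 30 bases are shown because they hold the GGCGCC matches of the members and both GTCT matches of Id3, the gene the values turn on, with the match in capitals. They lie at chr12:25096306-25096335 (minus strand, inside the Id2 gene but in no exon), chr13:48260956-48260985 (plus strand, before every annotated Id4 start), chr3:54755519-54755548 (plus strand, before every annotated Smad9 start), and chr4:136143741-136143770 and chr4:136143643-136143672 (plus strand, both in a UTR exon of an Id3 transcript in GENCODE M21).
Id2 GGCGCC: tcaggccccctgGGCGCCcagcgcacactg
Id4 GGCGCC: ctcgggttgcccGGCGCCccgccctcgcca
Smad9 GGCGCC: gcacggccgcctGGCGCCcttccagcgcgg
Id3 GTCT: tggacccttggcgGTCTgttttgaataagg
Id3 AGAC: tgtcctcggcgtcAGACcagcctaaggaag

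The 250 bases before the start of Smad6 (chr9:64022060-64022309, minus strand, printed 5′ to 3′) are shown whole because Smad6 was the feedback gene with the largest share of variance between groups. They held no GGCGCC and 1 GTCT, in capitals at the end of the window.
Smad6: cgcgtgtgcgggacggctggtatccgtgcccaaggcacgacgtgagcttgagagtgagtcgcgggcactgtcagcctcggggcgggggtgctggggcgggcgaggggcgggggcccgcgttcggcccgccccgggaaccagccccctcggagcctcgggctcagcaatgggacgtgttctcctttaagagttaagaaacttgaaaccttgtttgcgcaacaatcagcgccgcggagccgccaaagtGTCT
The composite GGCGCCNNNNNGTCT, searched on both strands, was in 23 of all promoters (0.0700%) and in 0 of the 6 member promoters. These matches describe letters in these windows and are no measure of binding.

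Id3 lies on chromosome 4 (136143497 to 136145755, plus strand, GRCm38). In vehicle tumors its RPKM ran from 93.0 over a median of 157.6 to 350.7. In X10 tumors it ran from 42.4 over a median of 58.7 to 252.0. The highest X10 tumor, X10_105, stood apart from the next one at 68.5, and the other 9 X10 tumors all lay below the lowest vehicle tumor. The groups thus overlapped through a single X10 tumor. The difference between the group means of log2(RPKM + 0.5) was -1.42 (SE 0.27, 95% interval -1.97 to -0.88), and without tumor X10_105 it was -1.64. Since Id3 was picked for this difference, the interval does not allow for the choice and is no test.

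The medians of the other groups lay between those of vehicle and X10. Id3 RPKM in insulin tumors ran from 43.0 over a median of 89.7 to 119.4, and all 10 were below the vehicle median. Glargine tumors ran from 79.3 over 102.8 to 141.0 and were the most even group. IGF1 tumors spread widely, from 48.0 over 94.8 to 240.9. Below the lowest vehicle tumor were 6 insulin, 3 glargine and 5 IGF1 tumors. In order of geometric mean RPKM, vehicle (168.7) was followed by glargine (103.1), IGF1 (98.4), insulin (80.8) and X10 (62.6).

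**Figure D1:**
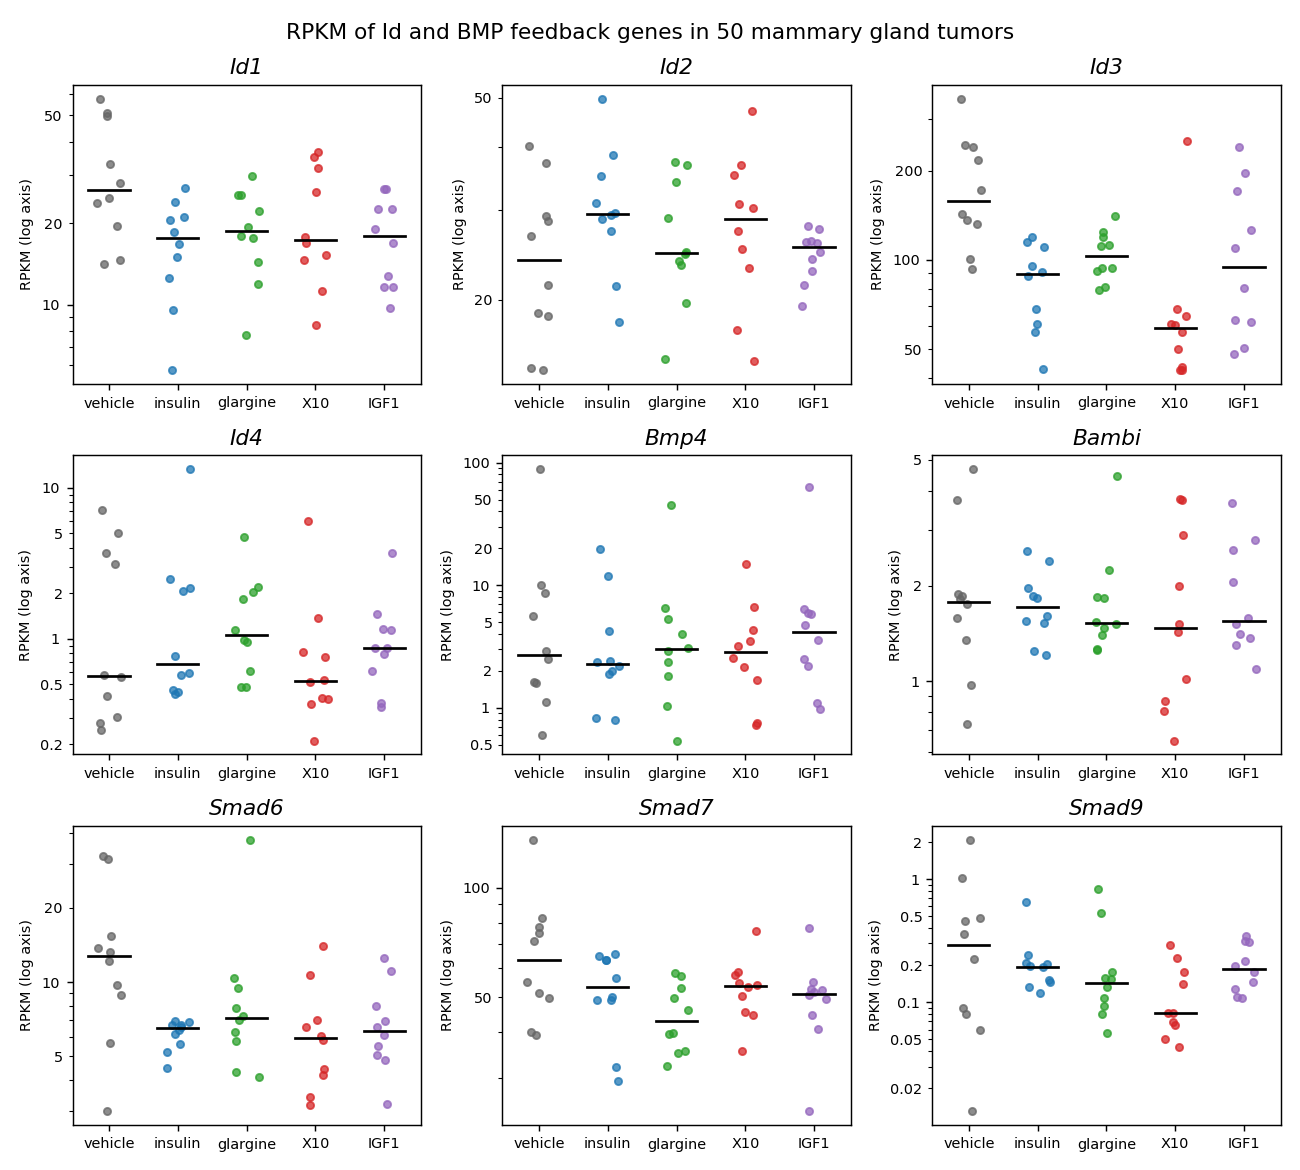
RPKM (log axis) of each member in the 50 tumors, by treatment group, with a point for each tumor and a line at the group median. Id3 medians were 157.6 in vehicle and 58.7 in X10 tumors, with 1 X10 tumor at 252.0, while the Id2 group medians lay between 24.0 and 29.5 and those of Bambi between 1.47 and 1.78.

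Against vehicle, the Id3 difference was -1.06 in insulin (SE 0.27, limma adjusted p = 0.196), -0.71 in glargine (SE 0.27, adjusted p = 0.789) and -0.78 in IGF1 tumors (SE 0.27, adjusted p = 0.374). Not one of these passed an adjusted p of 0.05 over all tested genes. They use the same vehicle tumors as the comparison for which Id3 was picked, so they are not separate evidence that Id3 was lower than in vehicle. The estimates in the comparisons without X10 and vehicle tumors do not use the tumors of that choice, although the SE is pooled over all 5 groups. There Id3 differed by 0.35 between glargine and insulin (95% interval -0.20 to 0.90), by 0.28 between IGF1 and insulin (95% interval -0.26 to 0.83) and by -0.07 between IGF1 and glargine (95% interval -0.61 to 0.48), with limma adjusted p of 0.990, 0.840 and 0.975. Between IGF1 and insulin it was 0.14 without IGF1_145 and 0.40 without IGF1_124. Neighbours in the order of levels from glargine to insulin therefore did not differ beyond the spread between tumors, and insulin and X10 were not compared by a test.

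Id1, which is known to act redundantly with Id3 in tumor vessels, lies on chromosome 2 (152736251 to 152737410, plus strand). Its RPKM ran from 14.2 over a median of 26.4 to 57.7 in vehicle tumors. The other groups had medians between 17.3 (X10) and 18.7 (glargine), and highest tumors between 26.7 (IGF1) and 36.6 (X10). All groups overlapped, but 9 insulin, 9 glargine, 8 IGF1 and 7 X10 tumors lay below the vehicle median. The Id1 difference from vehicle was -0.83 in insulin, -0.64 in glargine, -0.72 in IGF1 and -0.55 in X10 tumors (SE 0.28 each). With limma the adjusted p was 0.304 for insulin, 0.789 for glargine and 0.421 for IGF1, so no test was passed.

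Id2 and Id4 did not share this order. Id2 (chromosome 12, 25093799 to 25097140, minus strand) had group medians between 24.0 RPKM in vehicle and 29.5 RPKM in insulin tumors. Its IGF1 tumors were tightly grouped, from 19.5 to 27.9 RPKM, whereas vehicle tumors ran from 14.5 to 40.1. Differences of Id2 from vehicle lay between 0.05 (IGF1) and 0.33 (insulin), with SE 0.18. Id4 (chromosome 13, 48261228 to 48266026, plus strand) was low in most tumors, with group medians between 0.527 RPKM in X10 and 1.06 RPKM in glargine tumors. Single tumors stood high above them, up to 13.3 RPKM in insulin tumor insulin_37 and 7.08 RPKM in vehicle tumor Untreated_195. Id4 differences from vehicle lay between -0.48 (X10) and 0.02 (insulin), with SE 0.44. In X10 the value moved to -0.75 without X10_105 and to -0.25 without Untreated_195, so these differences could not be told from 0 at this spread.

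Smad6, which encodes an inhibitory SMAD that acts mainly on BMP receptors, lies on chromosome 9 (63953076 to 64022059, minus strand). In vehicle tumors its RPKM ran from 3.00 over a median of 12.7 to 32.5. Insulin tumors ran from 4.51 over 6.51 to 6.98, glargine tumors from 4.13 over 7.16 to 37.8, X10 tumors from 3.19 over 5.95 to 14.0, and IGF1 tumors from 3.21 over 6.33 to 12.5. All 10 insulin and all 10 IGF1 tumors were below the vehicle median, as were 9 glargine and 9 X10 tumors. No tumor of any other group fell below the lowest vehicle tumor, so the groups overlapped throughout. The Smad6 difference from vehicle was -0.90 in insulin (SE 0.30, limma adjusted p = 0.304), -0.55 in glargine (adjusted p = 0.806), -0.82 in IGF1 (adjusted p = 0.394) and -0.95 in X10 tumors.

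Smad7 (chromosome 18, 75367529 to 75395935, plus strand) encodes the inhibitory SMAD that also blocks TGF-beta receptors. Its RPKM in vehicle tumors ran from 39.3 over a median of 63.2 to 135.9. Medians of the other groups were 53.2 in insulin, 43.0 in glargine, 53.6 in X10 and 51.1 in IGF1 tumors. All 10 glargine tumors were below the vehicle median. The Smad7 difference from vehicle was -0.53 in glargine (SE 0.18, limma adjusted p = 0.789), -0.39 in IGF1 (adjusted p = 0.512), -0.32 in insulin (adjusted p = 0.495) and -0.28 in X10 tumors. Without vehicle tumor Untreated_161, the highest for Smad7, these differences were -0.41, -0.27, -0.20 and -0.16.

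Smad9, the receptor-activated SMAD among the members, lies on chromosome 3 (54755582 to 54801257, plus strand). Its RPKM was between 0.013 and 2.10 over all tumors, with a median of 33 reads per tumor. The vehicle median was 0.292, and the medians were 0.195 in insulin, 0.143 in glargine, 0.186 in IGF1 and 0.0820 in X10 tumors. Below the vehicle median were 9 insulin, 8 glargine, 7 IGF1 and all 10 X10 tumors. Since Smad9 was under the level needed for testing, these values are a description only.

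Bmp4, the ligand among the members, lies on chromosome 14 (46383520 to 46390669, minus strand). Its group medians lay between 2.28 RPKM in insulin and 4.17 RPKM in IGF1 tumors. Single tumors reached 88.7 in vehicle (Untreated_161), 63.5 in IGF1 (IGF1_145), 45.5 in glargine (glargine_69), 19.8 in insulin (insulin_26) and 14.8 in X10 (X10_100). The spread of Bmp4 within groups, an SD of 1.47 on the log2 scale, was larger than that of 97.8% of tested genes. Differences from vehicle lay between -0.43 (X10) and 0.08 (IGF1), with SE 0.64. Single tumors turned their signs. Without Untreated_161 the value was 0.28 in glargine, 0.08 in insulin and 0.04 in X10, and without IGF1_145 it was -0.33 in IGF1. Bambi (chromosome 18, 3507923 to 3516404, plus strand) had group medians between 1.47 RPKM in X10 and 1.78 RPKM in vehicle tumors, and its differences from vehicle lay between -0.13 (X10) and 0.01 (IGF1) with SE 0.23.

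**Figure D2:**
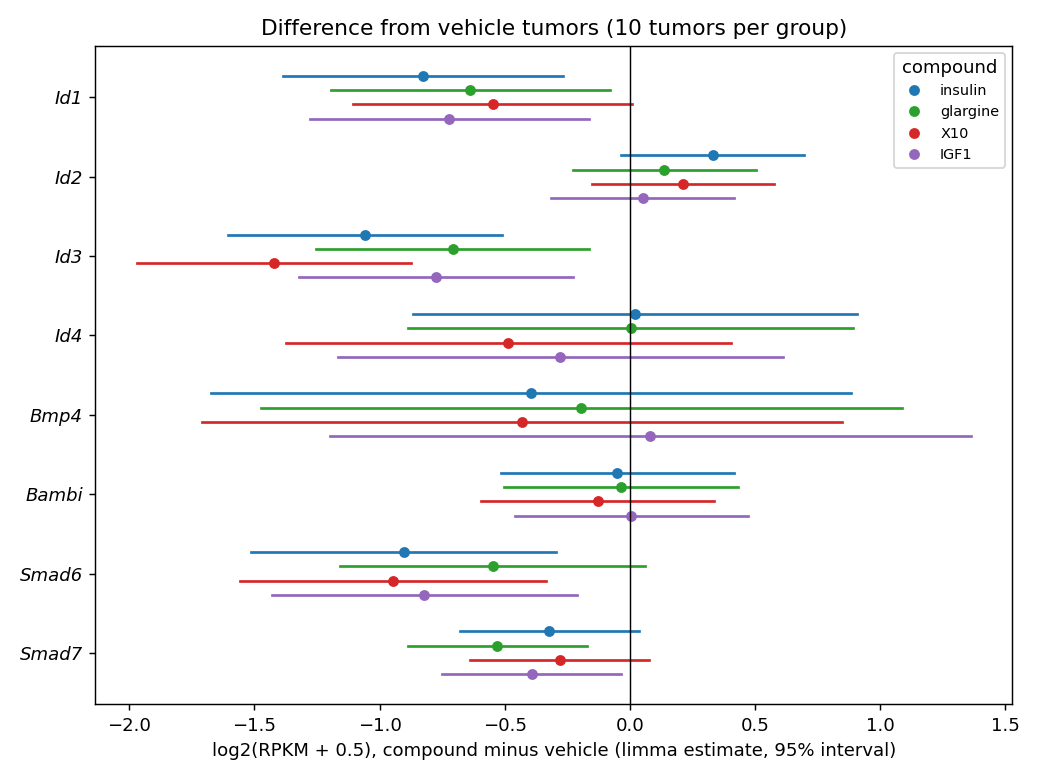
Difference of each tested member from vehicle, in log2(RPKM + 0.5), for each compound, with points at the limma estimate and lines for the unadjusted 95% interval (10 tumors per group). Id3, Id1, Smad6 and Smad7 lie left of 0 with every compound, and Id3 with X10 lies farthest, at -1.42. Id3 was picked for that difference, so its interval is no test.

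Counted over the 8 tested members, 0 were called in insulin against vehicle (all tested genes: 0%), 0 in glargine (0%), 0 in IGF1 (0.00598%), and in X10 1, which is Id3, the gene picked for that difference (0.0657%), so that this call restates the choice. Id3 was no longer called without X10 tumor X10_111 (-1.36), vehicle tumor Untreated_174 (-1.38) or vehicle tumor Untreated_194 (-1.31), with library size in the model (-1.26), or with only the 2 groups in the fit (-1.42). At an unadjusted p under 0.05 in limma, 3 members were lower in insulin (5.17% of all tested genes were lower at that level), 3 in glargine (2.92%) and 4 in IGF1 (4.34%), and 0 were higher. These were Id1 and Id3 in each of them, Smad6 in insulin and IGF1, and Smad7 in glargine and IGF1. Id3 was chosen on the same vehicle tumors, which raises these counts, and without it they were 2, 2 and 3 of 7 members. Over the vehicle tumors Id1, Smad6 and Smad7 had r 0.67, 0.52 and 0.55 with Id3. Leaving out Id3 therefore does not free these counts, or the medians that follow, of the choice. In X10, where nothing is read from it, 2 members were lower at that level (8.25%). Without Id3, the median difference of the other 7 members was -0.32 in insulin, -0.19 in glargine, -0.43 in X10 and -0.28 in IGF1 tumors, beside a median of all tested genes of 0.03, 0.02, -0.03 and 0.02. These medians are the values of Smad7 in insulin, Bmp4 in glargine and X10, and Id4 in IGF1. Without Untreated_161 that Smad7 value was -0.20 and the Bmp4 values were 0.28 and 0.04. Without Untreated_195 that Id4 value was -0.04. The medians were not recomputed without single tumors. The comparisons share the vehicle tumors, so they are not separate from each other. In glargine against insulin (0%), IGF1 against insulin (0.00598%) and IGF1 against glargine (0%), 0 members were called and 0 had an unadjusted p under 0.05, where the background was 3.96%, 7.30% and 6.98%. The smallest adjusted p of a member there was 0.990, 0.739 and 0.899 in limma.

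Treatment group took 38.6% of the variance of Id3 over the 50 tumors, a share that the choice of Id3 on the X10 and vehicle tumors raises, so it is not ranked among genes. The shares were 22.0% for Smad6, 18.6% for Id1, 17.2% for Smad7, 8.30% for Id2, 4.19% for Id4, 2.11% for Bmp4 and 0.940% for Bambi, beside a median of 9.29% over tested genes.

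Tumor by tumor, the members did not form a single block. X10 tumor X10_105 was the highest X10 tumor for 5 members, namely Id1 (36.6 RPKM), Id2 (47.2), Id3 (252.0), Id4 (5.97) and Smad6 (14.0). For Bmp4 it was only 7th of its group (2.16 RPKM). Vehicle tumor Untreated_161, which had the most Bmp4 of all 50 tumors, also had the most Smad7 (135.9 RPKM) and the second most Smad6 (32.5 RPKM), but the least Id2 (14.5 RPKM). Glargine tumor glargine_69 had the most Smad6 of all tumors (37.8 RPKM), with Bmp4 at 45.5 RPKM, while its Id3 (91.6 RPKM) was 8th in its group. IGF1 tumor IGF1_145 combined high Bmp4 (63.5 RPKM) with high Id3 (240.9 RPKM). High Bmp4 thus came with high Id3 in Untreated_161 and IGF1_145 but not in glargine_69.

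**Figure D3:**
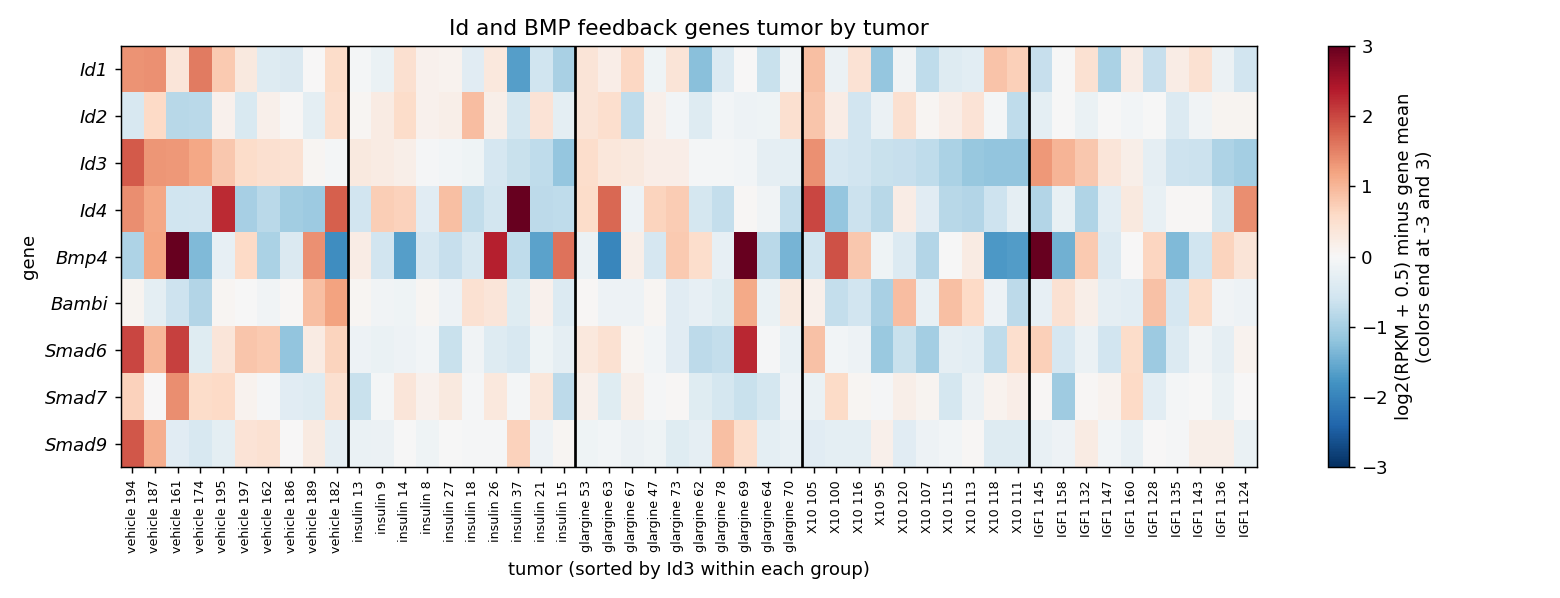
Members (rows) in each tumor (columns, sorted by Id3 within each group), with color for log2(RPKM + 0.5) minus the mean of the gene over 50 tumors. X10 tumor X10_105 is red for Id1, Id2, Id3, Id4 and Smad6, and the darkest Bmp4 cells are single tumors in the vehicle, glargine and IGF1 groups.

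Within treatment groups, that is after the group mean was subtracted, 36 pairs of members were correlated over the 50 tumors, in a family of 117 relations. No pair passed an adjusted p of 0.05 by permutation. The strongest was Id2 with Bambi (Pearson r 0.47, permutation p = 0.0020, adjusted p = 0.0780). Its Spearman rho was 0.46 (permutation p = 0.0017, adjusted p = 0.0559), and without the 2 tumors farthest from the Bambi median r was 0.48. Id1 and Id3 followed each other loosely (r 0.36, permutation p = 0.0126, adjusted p = 0.215; rho 0.38, permutation p = 0.0084, adjusted p = 0.120), with r 0.37 without the 2 farthest tumors. Bmp4 had r 0.38 with Smad6 (permutation p = 0.0162, adjusted p = 0.215), but rho was 0.18 (permutation p = 0.242, adjusted p = 0.569) and r was 0.26 without the 2 farthest tumors. With Id3, Bmp4 had r 0.12 (permutation p = 0.428, adjusted p = 0.747).

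Of the 81 relations of members with marker lists and library size, 2 passed an adjusted p of 0.05. Bambi correlated with the endothelial marker score (r 0.52, permutation p = 0.00042, adjusted p = 0.0246; rho 0.53, permutation p = 0.00016, adjusted p = 0.0187), with r 0.51 without the 2 farthest tumors. Within groups this r was 0.78 in vehicle, 0.53 in insulin, 0.70 in X10 and 0.40 in IGF1 tumors, but -0.32 in glargine tumors. With quantile normalization r was 0.45 (permutation adjusted p = 0.146), and without the X10 and vehicle tumors it was 0.20 (adjusted p = 0.876), so the relation no longer passed in either. Smad7 correlated with the score of immediate early genes, which include Fos and Egr1 and are switched on within minutes by many stimuli (r 0.51, permutation p = 0.0003, adjusted p = 0.0246), and r was positive in all 5 groups and 0.51 without the 2 farthest tumors. Its rho was 0.42 (permutation p = 0.0041, adjusted p = 0.0924) and did not pass. Without the X10 and vehicle tumors its r was 0.44 (permutation adjusted p = 0.518) and did not pass either.

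**Figure D4:**
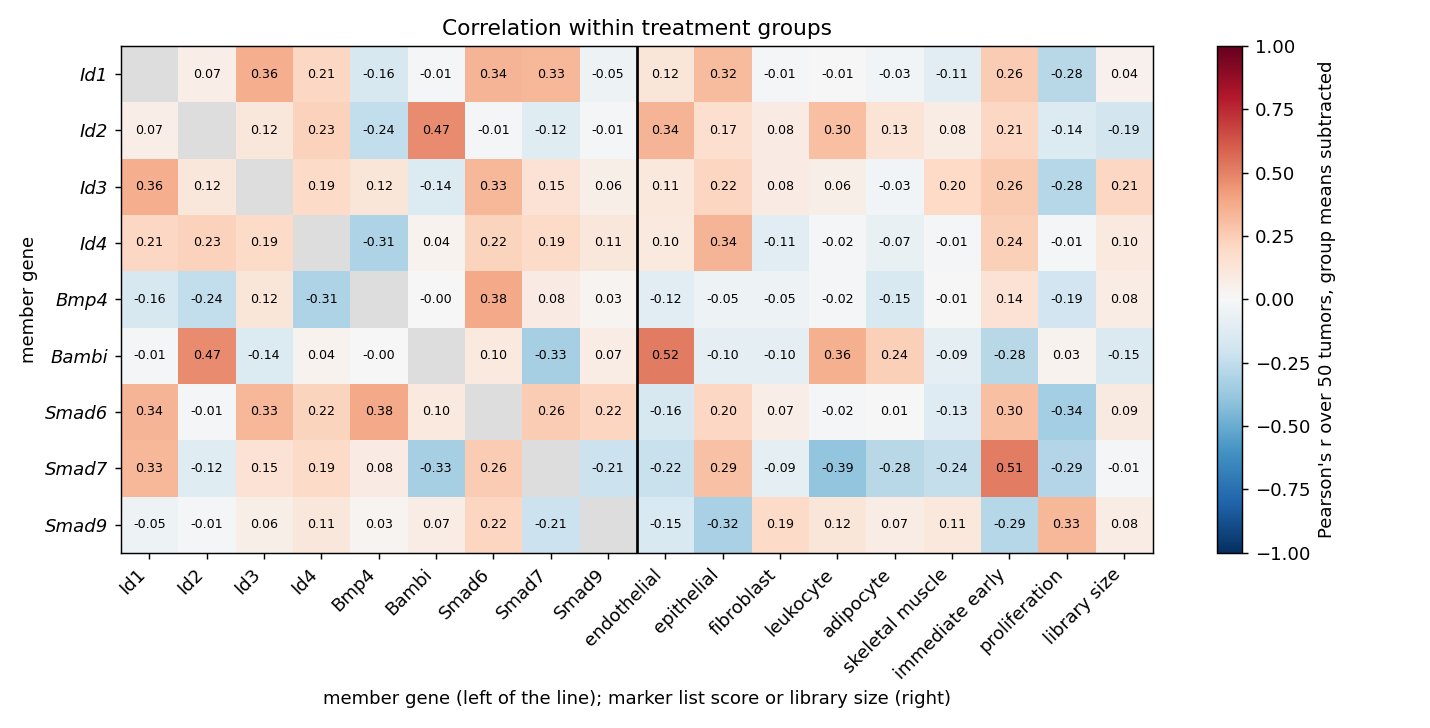
Pearson's r of each member with the other members (left of the line) and with marker list scores and library size (right) over 50 tumors after subtraction of group means. The strongest cells are Bambi with endothelial markers (0.52), Smad7 with immediate early genes (0.51) and Id2 with Bambi (0.47).

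For Id3 no relation with a marker list or library size passed. The strongest was with proliferation genes (r -0.28, permutation p = 0.0869, adjusted p = 0.407; rho -0.22, permutation p = 0.127, adjusted p = 0.413), followed by immediate early genes (r 0.26, permutation p = 0.0835, adjusted p = 0.407; rho 0.24, permutation p = 0.124, adjusted p = 0.413). Id3 had r 0.22 with the epithelial score (permutation p = 0.169, adjusted p = 0.498), r 0.21 with library size (permutation p = 0.155, adjusted p = 0.486) and r 0.11 with the endothelial score (permutation p = 0.496, adjusted p = 0.817). The 8 endothelial markers, all above 0 in every tumor, summed to group medians between 167.0 RPKM in vehicle and 180.2 RPKM in IGF1 tumors, with a range of 89.2 to 237.2 in X10. With the endothelial score in the model the Id3 difference between X10 and vehicle was -1.43, against -1.42 without it. The 6 immediate early genes summed to a median of 211.0 RPKM in vehicle (123.2 to 356.7), the highest of the groups, and 163.7 RPKM in X10 tumors (115.3 to 301.4). The part of immediate early genes in the Id3 difference, and in the Smad7 differences from vehicle, was not tested.

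Library size, recovered from the steps of the RPKM values, ran from 26.6 to 51.9 M reads with a median of 40.9 M, and group medians were 44.0 M in vehicle and 35.4 M in X10. With library size in the model the Id3 difference between X10 and vehicle was -1.26, against -1.42 without it. Epithelial markers differed strongly between tumors, as Krt8 ran from 2.39 to 1616 RPKM and Krt5 was at 0 in 2 tumors. Their sums had medians of 363.5 RPKM in vehicle, 308.7 in X10, 273.0 in glargine, 270.8 in insulin and 139.5 in IGF1 tumors. Id1 had r 0.32 with the epithelial score (permutation p = 0.0426, adjusted p = 0.277). The part of epithelial content in the Id1 differences was not tested. The 6 epithelial markers summed to 5098 RPKM in vehicle tumor Untreated_174 and 4151 RPKM in X10 tumor X10_105, far above the other tumors of their groups, and the part of this in the high Id3 of X10_105 was not tested. Leukocyte markers, of which 5 were in the table, summed to a median of 171.2 RPKM in vehicle (125.6 to 484.3), the lowest of the groups, beside 238.2 in insulin, 245.1 in glargine, 211.8 in X10 and 229.3 in IGF1 tumors. Smad7 had r -0.39 with the leukocyte score (permutation p = 0.0074, adjusted p = 0.215; rho -0.37, permutation p = 0.0092, adjusted p = 0.120), and Id3 had r 0.06 (permutation p = 0.703, adjusted p = 0.884). The part of leukocyte content in the differences from vehicle was not tested. In bulk RNA, fewer cells of a type and less RNA per cell cannot be told apart. The sequence sample IDs in the labels run group by group, and the labels do not say whether they mark an order of handling.

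The genes most like Id3 within groups, over all tested genes and 50 tumors, were Zkscan6 (r 0.69), Slc3a2 (0.65), Retnlg (0.62), Sh3bp5l (0.62) and Gm13332 (0.62), and the least like it were AI314180 (-0.70), mt-Tl1 (-0.64) and Tmed5 (-0.62). These are descriptions of the extremes of 16732 values. Among these values Smad6 ranked 1227th and Id1 817th. Among the genes most like Id1 were Optn, Atp13a4, Anxa8 and Hr, with r between 0.68 and 0.70, and the least like it were Mum1l1 (-0.74), Wls (-0.65) and Osr1 (-0.64).

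The wider BMP pathway was followed in 52 other genes, of which 44 were tested, and 0 were called in any of the 7 comparisons. At an unadjusted p under 0.05 in limma, 2 were lower in insulin than in vehicle, 2 in glargine and 4 in IGF1, and 0 were higher (5.17%, 2.92% and 4.34% of all tested genes were lower at that level). Among the ligands, 6 of 12 were tested, and Bmp6 had the smallest p of the lower genes in insulin (log2 difference -0.86, SE 0.33, adjusted p = 0.342) and in glargine (-0.88, SE 0.33, adjusted p = 0.789). Its vehicle values ran from 0.091 to 14.9 RPKM, so single vehicle tumors carried much of its mean. In IGF1 it was Smurf2, a ubiquitin ligase for BMP SMADs and receptors, at -0.48 (SE 0.20, adjusted p = 0.443). The 10 receptors and co-receptors, 3 SMADs and 3 E proteins were all tested, and 0 of them had an unadjusted p under 0.05 against vehicle. In IGF1 against insulin 3 of the 44 genes, a ligand, a receptor or co-receptor and an antagonist, were lower and 0 higher at an unadjusted p under 0.05, beside 7.30% of all tested genes in either direction, and in the other comparisons without vehicle and X10 there were 0.

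On the side of higher values, Gdf6, a BMP ligand, was at 0.54 in insulin (SE 0.28, adjusted p = 0.464), Tcf12, an E protein, at 0.40 in glargine (SE 0.23, adjusted p = 0.811) and Rgma, a co-receptor, at 0.52 in IGF1 (SE 0.29, adjusted p = 0.654). In X10 against vehicle Gdf6 was at 0.57 (SE 0.28) and Bmper, a secreted BMP regulator, at -1.01 (SE 0.40), given as a description. Between the other groups, the smallest p were those of Fst (0.73) and Ski (-0.23) in glargine against insulin, Atoh8 (0.39) and Gdf6 (-0.66) in IGF1 against insulin, and Tcf3 (0.26) and Fstl1 (-0.62) in IGF1 against glargine, all with a limma adjusted p of at least 0.634. The median difference of the 44 genes was 0.01 in insulin, -0.02 in glargine, -0.02 in X10 and -0.07 in IGF1 tumors, beside 0.03, 0.02, -0.03 and 0.02 over all tested genes.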

How the data were processed

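Poly-A RNA was sequenced on an Ion Proton. The authors aligned reads to GRCm38 with Tophat2 2.0.10 and Bowtie2, counted them per gene with HTSeq 0.6.1 and deposited RPKM values. The paper describes an RPKM table made with DEXSeq for exon expression, from counts scaled by library size and gene length. Within most genes the deposited RPKM values are multiples of a step, which could not be found for Bambi; reads and library sizes were recovered from these steps, for 16274 of 16733 tested genes, and at least 91.1% of low values per tumor were whole. Reads summed to between 1.15 and 1.27 times the recovered size, so sizes are relative. The step gives Id3 a length of 738 bases and Smad6 417, below the annotated 1791 and 3205, so levels are not ranked between genes.

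Genes whose mean over the tumors reached 0.5 RPKM were tested with limma 3.58.1 (R 4.3.3) on log2(RPKM + 0.5), with 5 groups of 10 tumors in the fit, an intensity trend and Benjamini-Hochberg adjustment over all tested genes; a gene was called at an adjusted p under 0.05. The pseudocount understates changes of low genes. The procedure was tested on simulated data. Correlations used two-sided permutation of tumors within groups (100000 resamples, numpy 2.4.6, scipy 1.17.1), adjusted over 117 relations. Scores are mean z-scores of a marker list.

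The members and gene lists were chosen with earlier results of these data known. Named are all members, per comparison the pathway gene with the smallest p in each direction, and the 5 most and 3 least correlated genes for Id3 and Id1. Of these, 1 gene is not reported here. Tumors share no number between groups, and 1 tumor titled IFG1 was taken as IGF1. Gene positions are from GENCODE M21. Alternatives were other pseudocounts, filters, scalings, covariates and groups in the fit, no trend, limma voom on recovered reads, and each tumor left out.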

Additional observations from a re-analysis of the deposited data

Results flagged for a closer look

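Groups of 10 tumors were checked for a highest or lowest tumor whose gap to its neighbour, as a share of the range of the group, was above the 95% critical value of Dixon's test. Of 65 groups of values, 18 had such a tumor; chance flags about 1 in 20 groups, and skewed values more. All the values given are RPKM unless stated.

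For Id3 it was X10 tumor X10_105 at 252.0. For Id4 it was insulin tumor insulin_37 at 13.3, glargine tumor glargine_63 at 4.74, X10 tumor X10_105 at 5.97 and IGF1 tumor IGF1_124 at 3.71. For Bmp4 it was vehicle tumor Untreated_161 at 88.7, glargine tumor glargine_69 at 45.5, X10 tumor X10_100 at 14.8 and IGF1 tumor IGF1_145 at 63.5, so the ligand stood far out in a single tumor in 4 of 5 groups. Glargine tumor glargine_69 was also far out for Smad6 at 37.8 and for Bambi at 4.46, and vehicle tumor Untreated_161 for Smad7 at 135.9. Smad9 was far out in vehicle tumor Untreated_194 at 2.10 and in insulin tumor insulin_37 at 0.646.

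The summed epithelial markers were far out in vehicle tumor Untreated_174 at 5098 and in X10 tumor X10_105 at 4151. Library size was far out in insulin tumor insulin_8 and in IGF1 tumor IGF1_143, at 51.9 M reads each.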

How the results depend on the processing

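Of the 35 differences recomputed, 23 kept their sign in every fit, among them all 16 of Id3, Id1, Smad6 and Smad7 against vehicle. Leaving out a tumor of a group outside the comparison did not change an estimate, so many of these fits could not turn a sign. All 16 also share the vehicle tumors on which Id3 was chosen, so this count is no sign of stability. Id3 in X10 against vehicle lay between -1.43 and -1.26 on the log2 scale over 11 settings and between -1.64 and -1.31 with each tumor left out, which describes the choice of Id3 and is no sign of stability; with only the 2 groups compared, or with library size as a covariate, 0 members were called, and between 0 and 1 with each tumor left out. Pairs of members that passed numbered 0, and 5 with group means not subtracted. Relations with lists and depth that passed numbered 2, then 1 with quantile normalization and 0 without X10 and vehicle tumors, where r of Bambi with endothelial markers was 0.20, of Smad7 with immediate early genes 0.44, and of Id3 with library size -0.10. Signs turned for Id2, Id4, Bmp4 and Bambi against vehicle, and for Id3 between IGF1 and glargine. These include Bmp4 in X10 (-0.43) and insulin (-0.40) and Id2 in X10 (0.21). Id4 in insulin against vehicle was -0.0068 with a pseudocount of 1, -0.097 with quantile normalization and -0.018 with the endothelial score, and in glargine -0.056, -0.099 and -0.024. Bambi in IGF1 was -0.0037 with a pseudocount of 1, -0.00075 with upper quartile scaling, -0.026 with library size and -0.10 with the endothelial score, which gave -0.0039 for Id2 in IGF1. With single tumors left out, Id4 lay between -0.31 and 0.25 in insulin and between -0.17 and 0.24 in glargine, and in IGF1, with no change of sign, between -0.45 and -0.044; Bmp4 between -0.68 and 0.080 in insulin, -0.58 and 0.28 in glargine, -0.67 and 0.044 in X10, and -0.33 and 0.56 in IGF1; Bambi between -0.15 and 0.079 in insulin, -0.16 and 0.094 in glargine, and -0.096 and 0.13 in IGF1, and in X10, with no change of sign, between -0.24 and -2.4e-05; Id2 between -0.025 and 0.14 in IGF1; and Id3 in IGF1 against glargine between -0.21 and 0.047. Chosen after seeing the data, leaving out tumor X10_105 with library size in the model gave -1.60 for Id3, -0.066 for Id2 in X10, -0.013 for Id4 in glargine, -0.035 for Bambi in IGF1 and -0.00087 for Id2 in IGF1. The causes were not tested. No paired analysis was possible because the tumor numbers do not recur between groups. Smad9 had a median of 33 reads per tumor, Id4 of 52 and Smad6 of 106.5, so their relative counting error is larger than that of Id3, with 2864.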
